A study of Homo sapiens with 2 samples.

Results

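The 9 genes described here are members of the BCL2 family and 1 relative, chosen by symbol out of 33538 gene identifiers: the anti-apoptotic BCL2, MCL1, BCL2L1 (which encodes BCL-xL) and BCL2L2 (BCL-w), the effector BAK1, the BH3-only genes BAD, BID and BCL2L11 (BIM), and BNIP3L (NIX). No measured value was used as a criterion, but the choice was made with earlier results of these data known. All 9 had UMIs (unique molecular identifiers, 1 per captured transcript). They were counted in SH-SY5Y, a human neuroblastoma cell line, grown as 1 untreated culture that was split into 2 flasks, SplitA and SplitB, and left to grow without synchronization. Each flask was tagged with its own hashtag antibody, Hashtag-1 or Hashtag-2, before both were pooled and run through droplets together, giving 1 library of transcripts and 1 of hashtags. Both libraries were labelled as untreated. The labels gave both hashtags the same split and so did not tell the flasks apart, and the names SplitA and SplitB are those of the paper. The flasks, read from the hashtags, are taken here as replicates 1 and 2 of a single condition, and no flask served as a control.

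Proteins of this family meet at the outer mitochondrial membrane, where the effectors open pores that release cytochrome c and so start caspase activation. The anti-apoptotic members hold the effectors and the BH3-only proteins in check, while BH3-only proteins bind the anti-apoptotic members or activate the effectors directly. BNIP3L is mainly known as a receptor that marks mitochondria for removal by autophagy, and MCL1 is known for its short-lived transcript and protein.

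A cell was assigned to a flask when 1 hashtag had at least 3 times the counts of the other and the other did not exceed the limit set in the authors' code. Of 2879 cells in the table, 1179 were SplitA, 1605 were SplitB and 95 were multiplets. Those with at least 1000 genes were kept, 899 in SplitA and 1195 in SplitB, with a median of 6063 and 6346 UMIs per cell and a range of 1801 to 27205. The mitochondrial share of the UMIs had a median of 8.64% in SplitA and 8.82% in SplitB. Levels are given as UMIs per 1000000 nuclear UMIs (CPM), that is, without the 13 mitochondrial genes, over 5312422 nuclear UMIs in SplitA and 7305543 in SplitB. As each UMI counts 1 captured 3′ end, levels were not divided by gene length, and the splice forms of MCL1 or BCL2L1 cannot be told apart. Intervals are exact 95% intervals, Poisson for levels and binomial (Clopper-Pearson) for shares, and cover counting error only. The label of the cells was checked on marker genes: all 10 adrenergic neuroblastoma markers had UMIs, led by PHOX2A at 755 and 735 CPM, but TH (9 UMIs in each flask) was close to 0. Of 8 blood cell markers, 6 had no UMI, and of 10 mesenchymal markers 8 had UMIs, among them TWIST1 with 182.4 and 176.6 CPM and THY1 with 46.9 and 47.8 CPM in SplitA and SplitB, while PRRX1 and COL1A2 had none.

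Among the 9 genes, the pro-apoptotic BAD was the highest in both flasks and the effector BAK1 the lowest. BAD encodes a BH3-only protein that binds BCL-2 and BCL-xL under the control of growth factor signalling. Its level was 149.3 CPM in SplitA, with an interval of 139.1 to 160.0, and 151.5 CPM in SplitB (142.7 to 160.7), and it was found in 55.7% and 56.3% of cells. Over all 17868 nuclear genes with a UMI in the kept cells, 768 had more UMIs than BAD. BNIP3L, BID and MCL1 followed at about the same level, each lower than BAD by intervals that did not overlap in either flask. BNIP3L had 77.0 CPM in SplitA (69.7 to 84.8) and 78.6 in SplitB (72.3 to 85.3). BID, which is cleaved by caspase-8 and links death receptors to mitochondria, had 80.2 (72.8 to 88.2) and 74.6 (68.5 to 81.1). MCL1 had 72.9 (65.8 to 80.5) and 76.7 (70.4 to 83.3). The intervals of these 3 genes overlapped in both flasks, and their order differed between the flasks.

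BCL2 and BCL2L1 formed the next pair, and MCL1 stood at least 2.62 times above BCL2 in each flask. BCL2 had 27.9 CPM in SplitA (23.6 to 32.7) and 27.1 in SplitB (23.5 to 31.2), and BCL2L1 had 22.0 (18.2 to 26.4) and 27.7 (24.0 to 31.7). Their intervals overlapped in both flasks. BCL2L11, which encodes a BH3-only protein that binds all the anti-apoptotic members, had 16.0 (12.8 to 19.8) and 16.8 (14.0 to 20.1), below BCL2L1 without overlap in SplitB but not in SplitA. The last pair, with overlapping intervals, was BCL2L2 with 45 and 69 UMIs (8.47 and 9.45 CPM) and BAK1 with 25 and 45 UMIs (4.71 and 6.16 CPM). Between SplitA and SplitB, no member had intervals apart, against 1.32% of the 9564 nuclear genes with at least as many UMIs as BAK1.

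**Figure D1:**
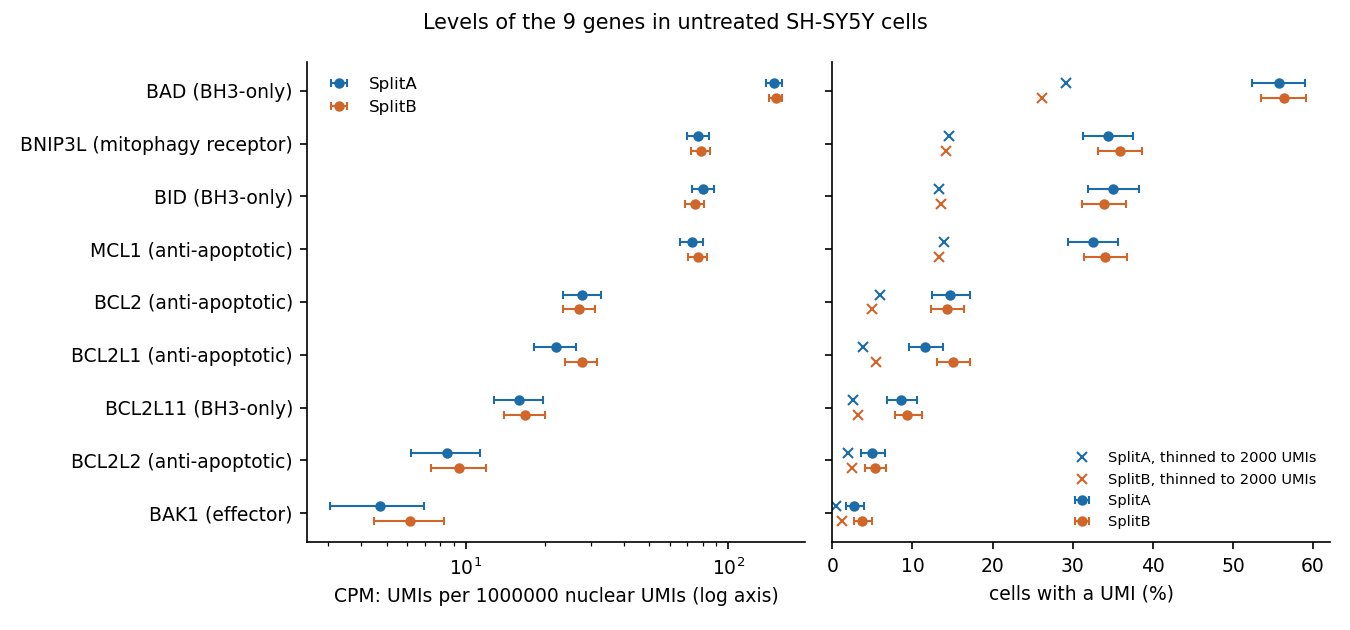
Left, the level in CPM of each gene on a log axis, and right, the share of cells with a UMI in percent, for SplitA (blue) and SplitB (orange), with exact 95% intervals as bars and crosses for cells thinned to 2000 nuclear UMIs. BAD is highest in both panels, and the bars of the flasks overlap for every gene.

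The share of cells in which a gene was found followed these levels and the depth of the cells. MCL1 was found in 32.5% (29.4% to 35.7%) and 34.1% (31.4% to 36.8%) of the cells of SplitA and SplitB, BCL2 in 14.7% and 14.3%, and BAK1 in 2.67% and 3.68%. A cell with MCL1 had at most 5 UMIs of it, and the highest count of any member in a cell was 8, for BAD in SplitB. When each cell was thinned at random to 2000 nuclear UMIs, which left out 39 cells of SplitA and 56 of SplitB, the shares fell to 13.9% and 13.3% for MCL1 and to 29.2% and 26.2% for BAD. No cell type that should lack these genes was present, so the level that free RNA in the droplets could give was not tested. In the thinned cells the variance of a member was 0.964 to 1.14 times its mean, where 1 is the value of counting alone. The mitotic gene UBE2C had 1.75 and 1.76, at a higher mean (0.41 and 0.37 UMIs per cell) than any member. Mitotic genes with lower means differed: CCNB1 (means 0.085 and 0.077) had 1.74 and 1.42, and BUB1 (0.014 and 0.012) had 0.987 and 0.989. A ratio near 1 at such low counts therefore does not show that a member was even between cells.

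Counted together, the pro-apoptotic side outweighed the anti-apoptotic side by UMIs. The 4 anti-apoptotic genes had 697 UMIs in SplitA and 1029 in SplitB, and the other 5 had 1738 and 2394. The anti-apoptotic share was thus 28.6% in SplitA (26.8% to 30.5%) and 30.1% in SplitB (28.5% to 31.6%), with overlapping intervals. MCL1 alone held 55.5% and 54.4% of the anti-apoptotic UMIs, BCL2 held 21.2% and 19.2%, and BAD held 45.6% and 46.2% of the UMIs on the other side. The share depends on which genes are counted: without BNIP3L it was 35.4% over both flasks, and without BAD 43.6%. For the whole family, counted as 6 anti-apoptotic genes against 11 BH3-only and effector genes, it was 21.8%. That count left out BNIP3L, its relative BNIP3 and the BCL2-like genes placed on neither side. The anti-apoptotic genes it added, BCL2A1 and BCL2L10, had no UMI. These are shares of transcripts, and the levels of the proteins were not measured here.

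**Figure D2:**
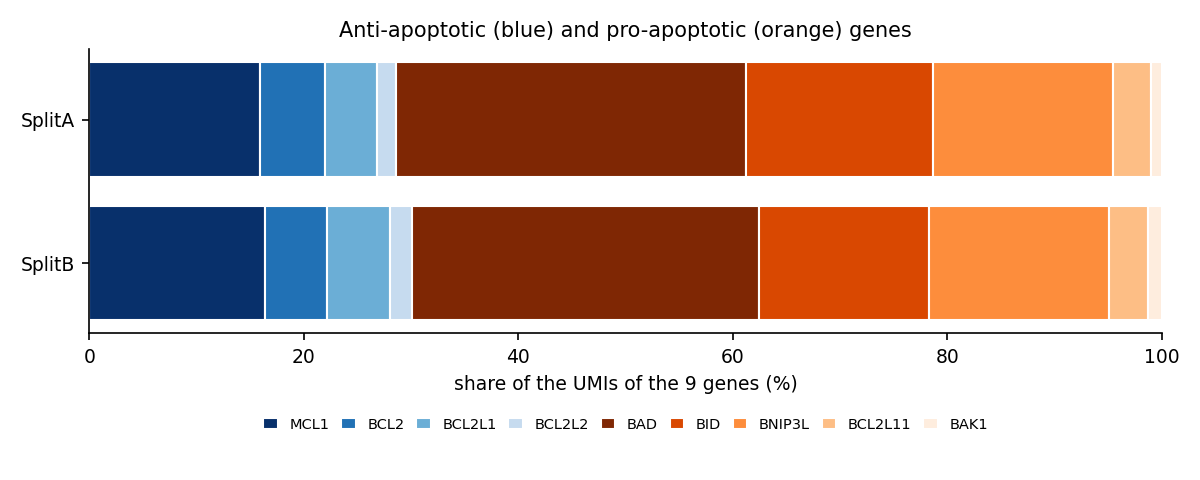
Share of the UMIs of the 9 genes held by each gene, in percent, with anti-apoptotic genes in blue and pro-apoptotic genes (BNIP3L among them) in orange, in SplitA and SplitB. The blue part takes 28.6% of the UMIs in SplitA and 30.1% in SplitB, most of it MCL1.

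In single cells, UMIs of both sides were seen together in 40.4% of the cells of SplitA and 43.3% of those of SplitB. Only pro-apoptotic UMIs were found in 40.2% and 36.8% of cells, only anti-apoptotic UMIs in 8.79% and 9.46%, and none of the 9 genes in 10.7% and 10.5%. A cell had a median of 2 of the 9 genes and 2 of their UMIs. At 2000 nuclear UMIs per cell, none of the genes was found in 37.1% and 38.9% of cells. Across the 899 and 1195 cells of the flasks, the log-normalized sums of both sides had a Pearson r of -0.015 and -0.021. The r of the 36 pairs of members ranged from -0.071 to 0.103, and no pair exceeded 0.1 in both flasks. All these cells share 1 library and differ in depth, and correlations this weak in sparse counts are no finding.

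To describe the relation to the mitochondrial share, the cells of each flask were ranked by it and cut into 3 groups of equal size (tertiles). The median share was 7.09%, 8.64% and 10.8% in the low, middle and high tertile of SplitA and 7.15%, 8.82% and 11.0% in those of SplitB. In edgeR's test, MCL1 rose and BID, BNIP3L and BAD fell from the low to the high tertile, BAD only after scaling in SplitA, where its CPM was level. MCL1 had 54.8, 69.6 and 96.4 CPM in the low, middle and high tertile of SplitA and 65.5, 69.9 and 96.8 in those of SplitB. Its intervals in the low and the high tertile did not overlap in either flask, with 44.5 to 66.9 against 81.8 to 112.7 in SplitA and 55.8 to 76.4 against 84.3 to 110.5 in SplitB. BID had 87.0, 81.1 and 71.7 in SplitA and 88.1, 73.8 and 60.6 in SplitB. BNIP3L had 94.4, 69.1 and 67.3 in SplitA and 87.3, 76.1 and 71.8 in SplitB. Both genes were thus lower in each step up in each flask, and only BID in SplitB had intervals of the low and high tertile that did not overlap.

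For the test, UMIs were summed per flask and tertile, and the high tertile was compared with the low tertile in edgeR's quasi-likelihood test with the flask as a block and Benjamini-Hochberg adjustment over 10080 genes. An SE was derived here as the absolute log2 difference divided by the square root of the F statistic of edgeR's test. With TMM scaling (factors that equalize most genes between libraries) the log2 difference of MCL1 was 0.50 (SE 0.13, adjusted p = 0.0029). The difference was -0.59 for BID (SE 0.13, adjusted p = 0.000212), -0.54 for BNIP3L (SE 0.13, adjusted p = 0.000702) and -0.37 for BAD (SE 0.099, adjusted p = 0.00341). Thus 4 of the 9 genes passed the threshold of 0.05, 1 higher and 3 lower, where 11.4% of all genes tested did, 3.86% higher (389 genes) and 7.57% lower (763 genes). The median log2 difference of the 9 genes was -0.35, against 0.020 for all genes. The test rests on 4 sums with 1 residual degree of freedom, and the spread came wholly from the trend over all genes, so its p-values mainly weigh counting error. Both sums of a flask come from the same flask, and both flasks from 1 culture.

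The TMM factors matter for BAD. Without them the median log2 difference of all genes moved up by 0.17, 80.3% of the calls were higher instead of 33.8%, and BAD fell by 0.20 (adjusted p = 0.178), while MCL1 (0.67, adjusted p = 4.61e-05), BID (-0.42, adjusted p = 0.0202) and BNIP3L (-0.37, adjusted p = 0.0415) passed in the same direction and BCL2 passed too (0.61, adjusted p = 0.0253). In SplitA, BAD had 153.2 CPM in the low tertile and 152.6 in the high tertile, and in SplitB 169.3 and 132.0, so the lower level lay in SplitB. DESeq2 gave an adjusted p to 1 of the 9 genes only (BAD, 0.178), with unadjusted p-values of 0.0642 for MCL1, 0.0288 for BID and 0.0342 for BNIP3L. In cells thinned to 2000 nuclear UMIs, none of the 7 members tested passed in edgeR, and their log2 differences were 0.58 for MCL1, -0.56 for BID and -0.49 for BNIP3L, with adjusted p = 0.104, 0.118 and 0.166. With no filter on low counts, BID alone passed (adjusted p = 0.0464), beside 0.11 for MCL1 and 0.0555 for BNIP3L.

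The other 5 members did not pass the threshold. BCL2 had 23.2, 28.6 and 32.1 CPM from the low to the high tertile of SplitA and 20.6, 27.4 and 33.9 in SplitB (log2 difference 0.44, SE 0.20, adjusted p = 0.149 in edgeR). It was higher in each step in both flasks, and between the lowest and the highest of 5 equal groups (quintiles) it passed with 0.90 (adjusted p = 0.0102). In cells thinned to 2000 nuclear UMIs its difference was 0.078 (adjusted p = 0.953), with 30.0 CPM in the low and 19.2 in the high tertile of SplitA and 16.3 and 30.6 in those of SplitB, so that the flasks moved in opposite directions. The log2 differences of BCL2L1 and BCL2L2 were -0.35 (SE 0.21) and -0.44 (SE 0.36), that of BCL2L11 was -0.0086 (SE 0.26), and that of BAK1 was 0.77 (SE 0.47) on the 4.52 and 5.56 CPM of SplitA and the 3.64 and 9.36 of SplitB. The SEs of these 4 genes leave room for differences as large as that of MCL1.

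**Figure D3:**
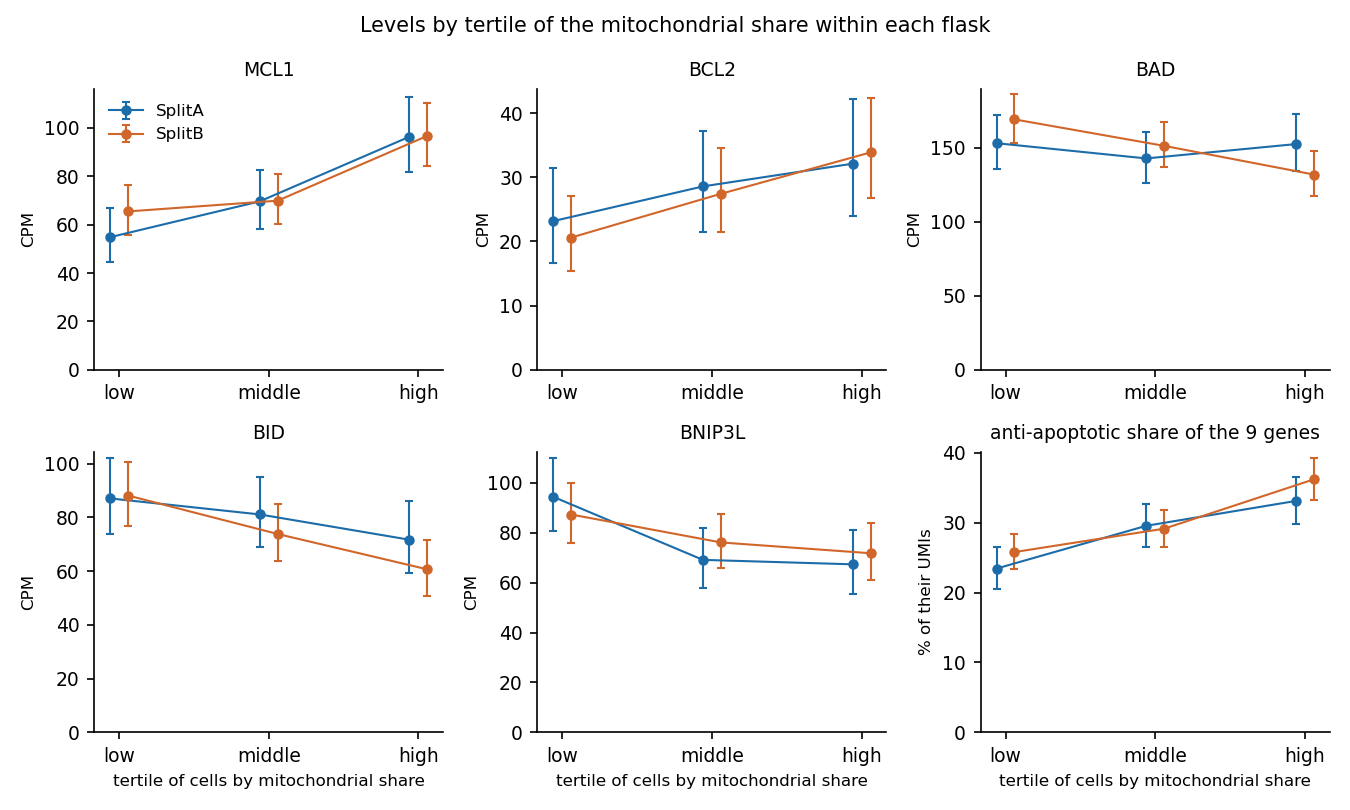
Level in CPM of 5 genes, and the anti-apoptotic share of the UMIs of the 9 genes in percent, in the low, middle and high tertile of cells by mitochondrial share, for SplitA (blue) and SplitB (orange) with exact 95% intervals. MCL1 and the anti-apoptotic share are higher in the high tertile of both flasks, while BID and BNIP3L are lower, and BAD is lower in SplitB only.

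As a ratio of counts from the same cells, the anti-apoptotic share needs no scaling between tertiles. It was 23.4%, 29.6% and 33.1% in the low, middle and high tertile of SplitA and 25.8%, 29.2% and 36.2% in those of SplitB. In both flasks the interval of the low tertile (20.6% to 26.5%, and 23.4% to 28.4%) lay below that of the high tertile (29.8% to 36.6%, and 33.3% to 39.2%). Leaving MCL1 out of the count lowers the share itself. It was then 13.1% and 15.9% in the low and high tertile of SplitA and 14.4% and 18.9% in SplitB. The counts were 94 and 97 anti-apoptotic UMIs against 624 and 511 pro-apoptotic UMIs in SplitA. In SplitB they were 152 and 152 against 903 and 650. How much of the step lay in MCL1 and how much in the pro-apoptotic genes was not tested. The intervals of the share without MCL1 overlapped in SplitA (10.7% to 15.8% against 13.1% to 19.1%) and in SplitB (12.3% to 16.7% against 16.3% to 21.8%), and in cells thinned to 2000 nuclear UMIs the share without MCL1 was 2.12 points lower in the high tertile of SplitA and 4.17 points higher in that of SplitB.

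Cells with a high mitochondrial share also differed in other ways. In the 70 SplitA and 104 SplitB cells with a share of 15% or more, the median was 1911 and 1929 nuclear UMIs per cell, against 5816 and 6036 in the other cells. Ribosomal protein genes took 17.7% and 19.6% of their nuclear UMIs, against 40.8% in the other cells of each flask, and MALAT1, a nuclear noncoding RNA, had 32905 and 35745 CPM, against 15098 and 14564. The 28 G2/M markers summed to 3991 and 4366 CPM, against 1381 and 1289, and the 20 S markers to 3477 and 2811, against 874 and 882. The 10 stress and damage genes summed to 363 and 284, against 216 and 231. The part of these differences in the results of the 9 genes was not tested beyond the values that follow.

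In those cells MCL1 had 150.4 CPM in SplitA (24 UMIs, 96.3 to 223.7) and 189.5 in SplitB (48 UMIs, 139.7 to 251.2), against 70.4 and 72.6 in the cells below 15%. After TMM scaling, the log2 difference between these groups of cells was 0.58 for MCL1 (SE 0.19, adjusted p = 0.038), -1.25 for BAD (adjusted p = 0.000433) and -1.25 for BNIP3L (adjusted p = 0.00389) in edgeR. BNIP3L had 75.2 CPM against 77.0 in SplitA and 39.5 against 80.0 in SplitB, so the lower level before scaling lay in SplitB. BID did not pass (-0.64, adjusted p = 0.0811), with 62.7 CPM against 80.7 in SplitA and 90.8 against 74.0 in SplitB, opposite ways in the flasks. BCL2 had 1 UMI in the SplitA cells and 12 in the SplitB cells, and its difference was -0.50 (SE 0.48), opposite to that between tertiles. The anti-apoptotic share was 45.1% (33.2% to 57.3%) and 48.3% (40.0% to 56.7%), with 32 and 71 anti-apoptotic UMIs. Cells left out for having under 1000 genes, 280 in SplitA and 410 in SplitB with a median mitochondrial share of 32.6% and 36.7%, had shares of 47.0% (38.9% to 55.3%) and 48.7% (40.5% to 56.9%).

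The result was then computed without these cells, with the tertiles set anew among cells below 15%. BID and BNIP3L passed again, with -0.49 (adjusted p = 0.00361) and -0.45 (adjusted p = 0.00737), while MCL1 had 0.39 (adjusted p = 0.0502) and BAD -0.25 (adjusted p = 0.101). The anti-apoptotic share was 23.1% and 31.5% in the low and high tertile of SplitA and 25.5% and 33.2% in SplitB. The tertiles were also set within each tertile of the G2/M share, so that the low and the high group held the same numbers of cells of each G2/M tertile. MCL1 then had 0.43 (adjusted p = 0.0137), BID -0.48 (adjusted p = 0.00429), BNIP3L -0.53 (adjusted p = 0.0013) and BAD -0.31 (adjusted p = 0.0216), all past the threshold.

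The cell cycle was described in the same way, by tertiles of the share of nuclear UMIs on the 28 G2/M markers, which were left out of the test. BNIP3L fell and MCL1 rose with this share. BNIP3L had 95.7, 77.1 and 59.6 CPM in the low, middle and high tertile of SplitA and 90.8, 81.8 and 62.6 in those of SplitB. MCL1 had 56.2, 67.8 and 92.9 in SplitA and 58.2, 69.1 and 103.7 in SplitB. For both genes the intervals of the low and high tertile were apart in each flask, with 81.6 to 111.4 against 49.0 to 71.8 for BNIP3L in SplitA and 49.0 to 68.6 against 91.1 to 117.5 for MCL1 in SplitB. BAD had 157.1, 156.0 and 135.8 in SplitA and 158.4, 154.4 and 141.4 in SplitB, with overlapping intervals.

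In edgeR's test over 10215 genes, the log2 difference of the high minus the low tertile was -0.83 for BNIP3L (SE 0.12, adjusted p = 1.79e-10), 0.55 for MCL1 (SE 0.12, adjusted p = 5.84e-05) and -0.42 for BAD (SE 0.087, adjusted p = 1.26e-05). These 3 of 9 members passed, where 33.5% of all genes tested did, 15.7% higher (1601 genes) and 17.8% lower (1821 genes), so the members' share of calls was near that of all genes. The median log2 difference was -0.076 for the 9 genes and 0.014 for all genes. Here too the fit had 1 residual degree of freedom and its spread came wholly from the trend over all genes. Its p-values thus mainly weigh counting error. BNIP3L passed under all 10 alternatives, DESeq2 among them (adjusted p = 0.0141), with log2 differences from -1.06 to -0.59. MCL1 passed under 8 of 10, but not in DESeq2 (adjusted p = 0.251) or in thinned cells (adjusted p = 0.171). BAD did not pass in DESeq2 (adjusted p = 0.166) or without TMM factors (adjusted p = 0.0834), where the median log2 difference of all genes moved up by 0.24 and 76.1% of the calls were higher instead of 46.8%.

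The remaining members did not pass in the main comparison by G2/M share. BID had -0.26 (SE 0.12, adjusted p = 0.0859 in edgeR). It passed under 2 of 10 alternatives, in quintiles (-0.49, adjusted p = 0.00785) and with a minimum of 300 genes (-0.31, adjusted p = 0.0327). Without TMM factors BID had -0.023 (adjusted p = 0.9). BCL2 had 0.25 (SE 0.21, adjusted p = 0.39), with 24.9, 31.3 and 27.4 CPM in SplitA and 18.2, 32.2 and 30.9 in SplitB. BCL2 was lowest in the low tertile and highest in the middle tertile of both flasks. BCL2L1 had 0.095 (SE 0.21), BCL2L11 0.16 (SE 0.24), BCL2L2 -0.13 (SE 0.36) and BAK1 -0.076 (SE 0.44). The anti-apoptotic share was 24.1%, 28.1% and 33.5% from the low to the high tertile of SplitA and 23.7%, 29.5% and 36.8% in SplitB, with the interval of the low tertile below that of the high tertile in each flask (21.1% to 27.2% against 30.3% to 36.8%, and 21.2% to 26.3% against 34.0% to 39.7%). With MCL1 left out of the count it was 13.5% and 16.2% in the low and high tertile of SplitA, with overlapping intervals (11.1% to 16.3% against 13.5% to 19.2%), and 12.5% and 19.4% in those of SplitB (10.5% to 14.7% against 16.8% to 22.1%). With the G2/M tertiles set within mitochondrial tertiles, BNIP3L had -0.78 (adjusted p = 1.21e-09), MCL1 0.53 (adjusted p = 8.4e-05) and BAD -0.40 (adjusted p = 1.95e-05).

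**Figure D4:**
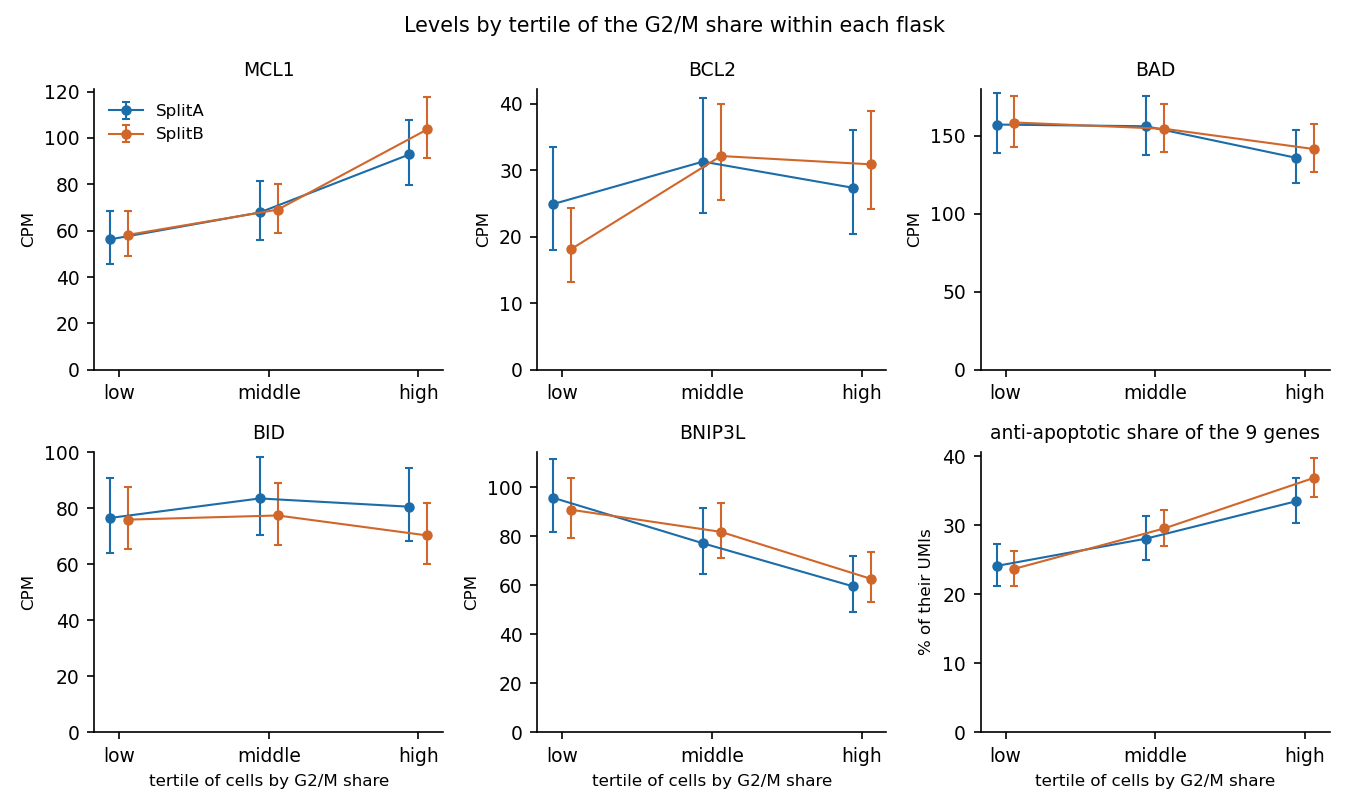
Level in CPM of 5 genes, and the anti-apoptotic share of the UMIs of the 9 genes in percent, in the low, middle and high tertile of cells by the share of UMIs on G2/M markers, for SplitA (blue) and SplitB (orange) with exact 95% intervals. MCL1 and the anti-apoptotic share are higher, and BNIP3L lower, in the high tertile of both flasks.

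**Figure D5:**
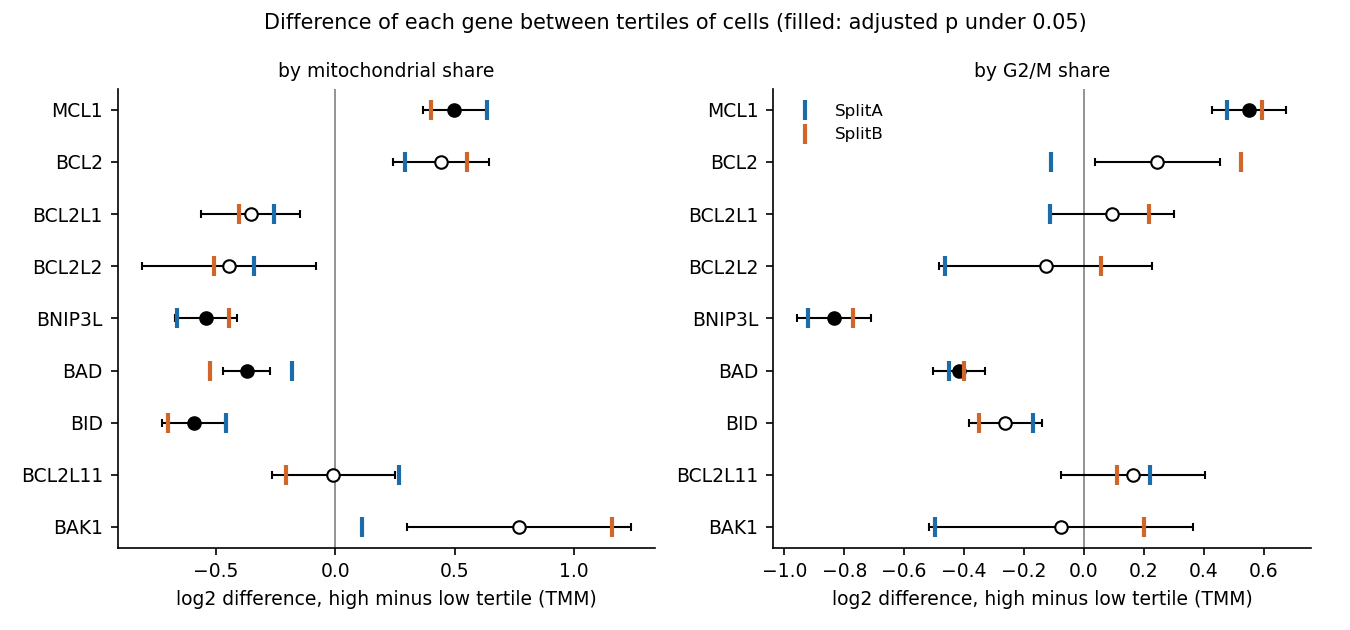
Log2 difference of each gene between the high and the low tertile of cells after TMM scaling, by mitochondrial share (left) and by G2/M share (right). Bars are the SE derived from the F statistic of edgeR's test, filled points have an adjusted p under 0.05, and ticks give the value of each flask. On the left 4 genes are filled, and on the right 3, and MCL1, BNIP3L and BAD are filled in both with the same direction.

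The 2 comparisons use the same cells, so their agreement for MCL1, BNIP3L and BAD is not independent. Across single cells the relations were weak. Over the 899 and 1195 cells of the flasks, log-normalized MCL1 had a Pearson r of 0.112 and 0.136 with the mitochondrial share, and with the G2/M share 0.201 and 0.191. BNIP3L had -0.121 and -0.132 with the mitochondrial share and -0.069 and -0.081 with the G2/M share. These values share the depth and the total of each cell and are given as a description only.

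Genes whose pattern across cells was most like that of a member were named by the lower of the 2 flasks' r, among 5178 other genes found in at least 10% of cells. For MCL1 these were ASPM (0.145) and GTSE1 (0.137), both known for roles in mitosis. TPT1 and FTH1 came first for BAD (both 0.149), and EIF4EBP1 (0.142) and NME4 (0.118) for BID. DOK4 (0.127) and TBX3 (0.12) came first for BCL2, MYL6 (0.106) and FTL (0.103) for BNIP3L, and TAOK3 (0.074) and POLD2 (0.066) for BCL2L1. BCL2L2, BCL2L11 and BAK1 were in too few cells to be compared. All of these values are weak and rest on sparse counts.

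Of the 15 other genes listed with the family, 12 had UMIs, and several were as high as the members or higher. The list includes BCLAF1, a BCL2-associated transcription factor that is not itself a family member. The effector BAX, the partner of BAK1 in pore formation, had 140.8 CPM in SplitA and 137.4 in SplitB, against 4.71 and 6.16 for BAK1, without overlap of the intervals. BNIP3, the close relative of BNIP3L, had 147.2 and 141.1. The BH3-only genes PMAIP1 (NOXA, which binds MCL-1), BBC3 (PUMA) and HRK had 27.5 and 29.3, 23.3 and 27.1, and 24.1 in both flasks. BCL2A1, BCL2L10 and BCL2L14 had no UMI, which allows up to 0.565 CPM in SplitA, and BIK had 2 UMIs in all.

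By mitochondrial share, 3 of the 9 genes of this list that were tested passed in edgeR, where 11.4% of all genes did. BNIP3 fell by 0.62 on the log2 scale (SE 0.10, adjusted p = 3.62e-08), from 172.4 to 131.6 CPM in SplitA and from 171.4 to 120.4 in SplitB, and BAX fell by 0.36 (adjusted p = 0.00637). Without TMM factors BAX had -0.19 (adjusted p = 0.217), and among cells under 15% it had -0.23 (adjusted p = 0.151). BOK, a BAX-like gene, rose by 0.77 (adjusted p = 0.0265). When ranked by G2/M share 7 of 10 genes of the list passed, where 33.5% of all genes did. PMAIP1 and BCLAF1 (not a family member) were higher, and BAX, BBC3, BNIP3, BOK and HRK lower. BBC3 fell by 1.38 (SE 0.21, adjusted p = 5.9e-10), from 31.9 to 17.2 in SplitA and from 39.6 to 15.7 in SplitB, and BNIP3 fell by 0.67 (adjusted p = 2.25e-13). The medians of the list were -0.30 and -0.18, beside 0.020 and 0.014 over all genes.

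The genes that act after the mitochondrial step were present at uneven levels. CYCS, which encodes cytochrome c, had 358.6 and 382.4 CPM and ENDOG, a mitochondrial nuclease, 89.2 and 82.4. CASP9, the initiator caspase of this route, had 7.15 and 7.67. CASP8, the initiator caspase of the death receptor route, had 1 UMI in each flask, and CASP10 had none. DIABLO had 15 UMIs in all, and annotated genes share its exons on the same strand, so that its reads may have gone uncounted.

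By G2/M share, where 33.5% of all genes passed, APAF1, CYCS and ENDOG passed higher and CASP9 lower in edgeR. ENDOG rose by 2.50 on the log2 scale (SE 0.13), from 29.0 to 162.7 CPM in SplitA and from 21.9 to 168.9 in SplitB. CYCS rose by 0.61 (SE 0.059), from 251.0 to 460.6 and from 281.4 to 496.9. By mitochondrial share 1 of 10 passed, where 11.4% of all genes did. It was CYCS, which fell by 0.25 (adjusted p = 0.00755 in edgeR) after TMM scaling. CYCS had 355.5 and 377.5 CPM in the low and high tertile of SplitA and 408.6 and 348.2 in SplitB. Only SplitB thus had the lower level before scaling, and without TMM factors CYCS had -0.084 (adjusted p = 0.475). The medians were 0.44 and 0.068.

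Among the 8 inhibitors of apoptosis, BIRC5 (survivin, which also acts in mitosis) was highest, with 192.2 and 184.8 CPM, followed by BIRC6 with 36.1 and 34.8. By G2/M share BIRC5 rose by 3.48 on the log2 scale (SE 0.10), from 24.9 to 384.9 in SplitA and from 32.2 to 381.8 in SplitB, and was the only one of 6 tested to pass, against 33.5% of all genes. By mitochondrial share 2 of 6 passed, BIRC6 with 0.60 (SE 0.17, adjusted p = 0.00795 in edgeR) and XIAP with 0.57 (adjusted p = 0.0345), against 11.4% of all genes, and BIRC6 had 0.37 (adjusted p = 0.222) among cells under 15%. The list's medians were 0.28 and 0.18.

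Among the death receptor genes, TRADD and FADD, adaptors of these receptors, were highest with 25.2 and 20.5, and 23.9 and 19.2 CPM, TNFRSF10B (a TRAIL receptor) had 11.7 and 9.03, and FAS had 0 and 2 UMIs. Exons of FAS overlap STAMBPL1 on the same strand (68 UMIs), so that its reads may have gone uncounted. Of 5 tested genes, none passed by mitochondrial share in edgeR, where 11.4% of all genes did. TRADD alone passed by G2/M share, where 33.5% of all genes did, and fell by 1.23 (SE 0.22, adjusted p = 2.44e-07).

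The 7 genes of the mitochondrial pore and its carriers were led by SLC25A6 (1915 and 1896 CPM) and SLC25A5 (209.5 and 219.6), both ADP/ATP carriers. By mitochondrial share 3 of 7 fell in edgeR, where 7.57% of all genes did, SLC25A6 by 0.24 (adjusted p = 1.56e-05), SLC25A4 by 0.60 (adjusted p = 0.000105) and VDAC2, a channel known to bind BAK, by 0.36 (adjusted p = 0.0031). Without TMM factors SLC25A6 had -0.070 (adjusted p = 0.278) and VDAC2 -0.19 (adjusted p = 0.187), and among cells under 15% SLC25A6 had -0.071 (adjusted p = 0.522). In the G2/M comparison 6 of 7 passed, where 33.5% of all genes did, PPIF and VDAC3 higher and SLC25A4, SLC25A5, SLC25A6 and VDAC2 lower, VDAC2 by 0.51 (adjusted p = 6.94e-09). The medians were -0.17 and -0.27.

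Of 5 genes that act on the turnover of MCL-1 or BCL-2 proteins, USP9X, a deubiquitinase of MCL-1, and HUWE1, a ubiquitin ligase for it, were highest with 39.0 and 40.8, and 36.7 and 39.1 CPM. HUWE1 was the only one of the 5 to pass by mitochondrial share, where 11.4% of all genes did (log2 difference 0.60, adjusted p = 0.00871 in edgeR, 0.17 in SplitA and 0.90 in SplitB). USP13 was the only one by G2/M share, where 33.5% of all genes passed (1.65, SE 0.26, adjusted p = 2.3e-09). USP13, also a deubiquitinase, had 7.54 CPM in the low and 25.2 in the high tertile of SplitA, and 8.67 and 34.3 in those of SplitB. The medians were 0.33 and 0.078.

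Of the 8 stress and damage genes tested, 3 fell by mitochondrial share in edgeR, where 7.57% of all genes did, GADD45A by 0.85 (SE 0.15, adjusted p = 1.82e-06), CDKN1A by 0.67 (adjusted p = 0.00829) and DNAJB1 by 0.78 (adjusted p = 0.0063), and none rose. CDKN1A had -0.50 (adjusted p = 0.0664) without TMM factors and -0.26 (adjusted p = 0.458) among cells under 15%. With the G2/M share 3 of the 8 passed, where 33.5% of all genes did. They were CDKN1A, DNAJB1 and DDIT3, all lower, where 17.8% of all genes were. DDIT3 fell by 1.80 (SE 0.28, adjusted p = 1.75e-09 in edgeR). GADD45A was not among the genes called by G2/M share. Targets of p53 were not tested as a set. JUN was the highest of the list, with 61.6 and 57.1 CPM.

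Several members lie over other genes, and the counting is not stated to use strand. MCL1 (chromosome 1, 150560895 to 150579738 in GENCODE 44 on GRCh38) overlaps ADAMTSL4, with 15 UMIs on the opposite strand. BAD (chromosome 11, 64269830 to 64284704) overlaps GPR137 with 594 UMIs, and BNIP3L overlaps PNMA2 with 414, each on the opposite strand. BCL2L11 (chromosome 2, 111119378 to 111168444) overlaps MIR4435-2HG with 106 UMIs, so for these genes reads of the partner cannot be told apart if strand was not used. BCL2L2 (chromosome 14, 23298790 to 23311751) shares exons on its strand with BCL2L2-PABPN1, which had no UMI, so that reads of BCL2L2 may have gone uncounted and its level may be too low. BCL2L2 also overlaps PPP1R3E, with 52 UMIs on the opposite strand, so its level may instead be too high if strand was not used. BID (chromosome 22, 17734138 to 17774770) had 971 UMIs over both flasks. All members are annotated as protein-coding.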

How the data were processed

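SH-SY5Y cells of 2 flasks were measured in 1 CITE-seq experiment. The submitters' processing notes name STAR 2.7, Cell Ranger 4.0.0 and the build GRCh38 (hg38). The deposited values are UMI counts per gene and cell, without normalization, for 33538 gene identifiers, of which 24935 have a symbol in the reference table used here. Flasks were read from the hashtag rows with the authors' limits and a ratio of 3, and hashtags remove only doublets of different flasks. Depth per kept cell was 1801 to 27205 UMIs, and intervals cover counting error only.

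Here, UMIs of nuclear genes were summed per flask and tertile of cells and tested with edgeR 4.0.16 (quasi-likelihood test, TMM factors, filterByExpr, flask as block, 2-sided, adjusted p under 0.05). DESeq2 1.42.0 was an alternative. The flask is no label of the samples, which are the mRNA and the hashtag library. In both main fits the spread came wholly from the trend over all genes. The p-values thus mainly weigh counting error and do not measure a gene's own spread between the flasks, which come from 1 culture. The script was tested on simulated data. Other values came from Python 3.11.15, numpy 2.4.6, scipy 1.17.1 and pandas 2.3.3, plots from matplotlib 3.10.9, and gene positions from GENCODE 44.

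Named are all 9 members, of each other list that holds no cell type or cell cycle markers the called genes (at most the 10 with the lowest p per comparison) and the 2 highest in level, and the 2 genes most like a member. Further genes behind a count (BOK, XIAP, HUWE1, CASP9, APAF1, BCLAF1, PMAIP1, HRK, PPIF, VDAC3 and others) were named after their values were seen, as were low genes. Some items are not reported here. The members and lists were chosen with earlier results of these data known.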

Additional observations from a re-analysis of the deposited data

How the results depend on the processing

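Leaving out the flask block changed the calls little, with 1078 genes by mitochondrial share and 3400 by G2/M share without the replicate block, against 1152 and 3422 with it, and the same 4 and 3 members past the threshold. By mitochondrial share, 287 genes were called in DESeq2, 402 with no filter on low counts, 373 in cells thinned to 2000 nuclear UMIs, 729 in cells under 15% mitochondrial share, 4105 with a minimum of 300 genes, and 2267 when cells of 15% or more were set against the rest. By G2/M share the count was 787 in DESeq2 and 1254 in thinned cells. The cause of these changes was not tested. Thinning lowered the UMIs per cell and also left out cells with fewer than 2000 nuclear UMIs. Cells of 15% or more mitochondrial share had a median of 1911 nuclear UMIs in SplitA and 1929 in SplitB, below that limit. The thinned setting thus changed both the depth and the cells compared. The anti-apoptotic share of 29.5% moved by more than the SD between flasks only with other genes. It was 35.4% without BNIP3L, 43.6% without BAD and 21.8% for the whole family counted without BNIP3L and BNIP3. With 1 flask left out it was 28.6% to 30.1%.

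Directions turned for genes that were not called. By mitochondrial share, BCL2L11 had 0.16 without TMM factors and in thinned cells, 0.023 with the limits of the authors, 0.026 for 15% or more against the rest, 0.0030 under 15% and 0.021 within G2/M tertiles, and BCL2 had -0.50 for 15% or more. VDAC2, which was called, had 0.014 in that comparison. By G2/M share, BAK1 had 0.16 and BCL2L2 0.11 without TMM factors, BCL2L2 had 0.050 in quintiles, and BCL2 had -0.49 in thinned cells. With 1 flask left out no count of calls could be made, since no test remains. The tertiles within other tertiles, the cells under 15% and the share without BAD were added after the data had been seen. Levels of the 9 genes stayed within 0.767 to 1.27 times their value in every alternative.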
